A study of Mus musculus with 18 samples.

Results

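H3K27me3 was called by CUT&Tag in 437 autosomal regions in every one of 12 libraries from mouse headfolds, out of 4948 regions found in any of them (8.83%). The regions were chosen from the readout itself. The peaks of the 12 lists on chromosomes 1 to 19 were merged wherever they overlapped by 1 bp or more, and a merged region was kept if each list held at least 1 peak in it. Presence, width and covered length are therefore given as a description, without a test.

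In CUT&Tag an antibody brings a transposase to the mark, and the DNA cut there is sequenced. Each reaction used 1 headfold, the anterior end of the embryo that forms the brain and face, collected at embryonic day 8.5. All embryos were Gulo-/-, so they could not make vitamin C, whose final step needs the Gulo enzyme, and depended on the dam for it. The 4 groups were the 129 background (named 129S6 in the design text) and the B6 background, each with vitamin C in the drinking water at 3.3 g/l or without it, with 3 libraries per group from 2 female embryos and 1 male. Per the labels the 3 B6 embryos with vitamin C carry 1 pregnancy code. Replicates were numbered in the order of deposit, and replicate 3 of either B6 group was not analysed here. A headfold is a mixture of neural, mesenchymal and other cells, so fewer cells with the mark and less of the mark per cell cannot be told apart. Peak lists hold no expression values, so the tissue label could not be checked against its markers.

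H3K27me3 is laid down by Polycomb repressive complex 2 and is read by the Cbx subunits of Polycomb repressive complex 1. It covers genes for developmental transcription factors and signals in cells where these genes are silent, often in broad domains around promoters rich in CpG. In the early embryo the Hox clusters, which set position along the body axis, are its textbook targets.

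The sequences below are those of microRNAs with a shared seed whose hairpins lay in the regions. They are shown because copies with the same seed lay in regions called in every library, on different chromosomes for miR-10, miR-196 and miR-9 and in 1 region for miR-132 and miR-212. The capitals mark the seed, bases 2 to 8 of the mature RNA, and the sequences are from RefSeq, build GRCm38.p6.
miR-10a-5p (Mir10a, Hoxb cluster, chr11:96317186-96317208, plus strand): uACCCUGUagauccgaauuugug
miR-10b-5p (Mir10b, Hoxd cluster, chr2:74726074-74726096, plus strand): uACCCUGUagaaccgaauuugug
miR-196a-5p (Mir196a-1, Hoxb cluster, chr11:96265187-96265208, plus strand): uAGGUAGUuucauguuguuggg
miR-196a-5p (Mir196a-2, Hoxc cluster, chr15:102973365-102973386, plus strand): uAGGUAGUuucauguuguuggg
miR-196b-5p (Mir196b, Hoxa cluster, chr6:52230129-52230150, minus strand): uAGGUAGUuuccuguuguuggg
miR-9-5p (Mir9-1, region of Rhbg, chr3:88215613-88215635, plus strand): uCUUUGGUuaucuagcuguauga
miR-9-5p (Mir9-3, no coding gene, chr7:79505279-79505301, plus strand): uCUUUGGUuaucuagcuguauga
miR-132-3p (Mir132, region of Smg6, Hic1 and Ovca2, chr11:75173723-75173744, plus strand): uAACAGUCuacagccauggucg
miR-212-3p (Mir212, the same region, chr11:75173443-75173464, plus strand): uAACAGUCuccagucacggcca

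Being inside a region did not mean that the microRNA itself lay under a peak everywhere. All bases of miR-196a-5p from Mir196a-1 and of miR-9-5p from Mir9-3 were covered in 12 lists. The copies at Mir196a-2, Mir196b, Mir10b and Mir9-1 were covered in 11 lists, miR-212-3p in 9, miR-132-3p in 8 and miR-10a-5p in 7. Of 919 autosomal hairpins in the RefSeq table, 28 lay in 21 of the regions, and 7 of them had a mature form covered to its last base in all 12 lists. miR-9 and miR-132 are known for roles in neural cells, and the miR-10 and miR-196 genes sit inside the Hox clusters.

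Promoters were available for 463 of the 635 coding genes that overlap the regions. The next sequences run from 250 bases before to 50 bases after the annotated start, with every CpG (the letters CG, which read the same on both strands) in capitals. They show that starts covered in all 12 lists ranged from CpG-rich to CpG-poor. Cbx8 encodes a Polycomb subunit that reads the mark, Emx1 a forebrain homeobox factor, and Ecel1 a neuronal endopeptidase-like membrane protein.
Cbx8 (chr11:119040864-119041163, minus strand): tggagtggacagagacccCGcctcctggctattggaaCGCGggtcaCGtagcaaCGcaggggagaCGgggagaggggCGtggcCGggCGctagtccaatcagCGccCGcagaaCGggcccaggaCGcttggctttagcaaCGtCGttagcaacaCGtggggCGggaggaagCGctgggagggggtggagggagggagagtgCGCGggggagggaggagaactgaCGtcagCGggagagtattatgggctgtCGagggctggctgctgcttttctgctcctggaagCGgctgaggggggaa
Emx1 (chr6:85187681-85187980, plus strand): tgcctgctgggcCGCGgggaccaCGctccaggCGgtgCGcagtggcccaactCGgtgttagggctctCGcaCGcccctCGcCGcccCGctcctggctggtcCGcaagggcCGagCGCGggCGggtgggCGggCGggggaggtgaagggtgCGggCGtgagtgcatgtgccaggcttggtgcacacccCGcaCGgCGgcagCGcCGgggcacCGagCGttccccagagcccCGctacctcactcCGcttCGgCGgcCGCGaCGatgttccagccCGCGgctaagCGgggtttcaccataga
Ecel1 (chr1:87156307-87156606, minus strand): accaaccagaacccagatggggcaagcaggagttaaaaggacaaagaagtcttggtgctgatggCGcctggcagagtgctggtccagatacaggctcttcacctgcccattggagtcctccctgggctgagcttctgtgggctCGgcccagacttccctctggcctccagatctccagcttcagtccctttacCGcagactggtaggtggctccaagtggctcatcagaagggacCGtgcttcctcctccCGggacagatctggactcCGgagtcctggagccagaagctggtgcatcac

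The Emx1 window holds 37 CpG, and 7.61% of all autosomal coding promoters hold as many or more. The Cbx8 window holds 24 (28.0% of promoters). The Ecel1 window holds 6, a number reached by 68.6% of promoters. Inside the regions lay 461 coding starts of 388 coding genes, so some genes count more than once. Over these starts the median was 19 CpG, against 14 over 20085 autosomal coding starts, and 67.0% held at least 15 CpG, against 48.1%. The same share was 66.9% in regions called in 11 lists and 65.8% in regions called in 2 to 9, so the CpG-rich share was close to that in regions called in fewer lists.

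The regions were broad. Their median width was 17.3 kb, with a middle range of 11.6 to 26.2 kb and extremes of 5.87 and 173 kb. They summed to 9.41 Mb of the 39.0 Mb in all merged regions. Regions called in 11 lists, the nearest outside the rule, numbered 359 and had a median width of 10.9 kb. Of these 359 regions, 265 (73.8%) lacked a peak only in the list of B6 without vitamin C replicate 2, the shortest list with 732 autosomal peaks. A further 48 lacked 129 without vitamin C replicate 2 and 40 lacked B6 without vitamin C replicate 1. Membership thus turned mostly on 3 lists, all without vitamin C.

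The covered share of a region, the percentage of its bases under peaks of a given list, differed greatly between libraries. In the 129 embryos with vitamin C the median covered share over the 437 regions was 97.5%, 78.4% and 77.0%. In the 129 embryos without vitamin C it was 84.4%, 42.1% and 85.2%. In the B6 embryos with vitamin C it was 51.3%, 35.9% and 78.9%, and in those without it 17.7%, 36.3% and 62.8%. The group means were 84.3 ± 11.5, 70.6 ± 24.7, 55.3 ± 21.8 and 39.0 ± 22.7% (SD, n = 3 in each), and each pair of neighbouring groups overlapped. The length of the lists moved with these values, since they covered from 3.51 Mb (B6 without vitamin C replicate 1) to 30.8 Mb (129 with vitamin C replicate 1), and the part of list length in them was not tested. Depth is unknown.

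**Figure D1:**
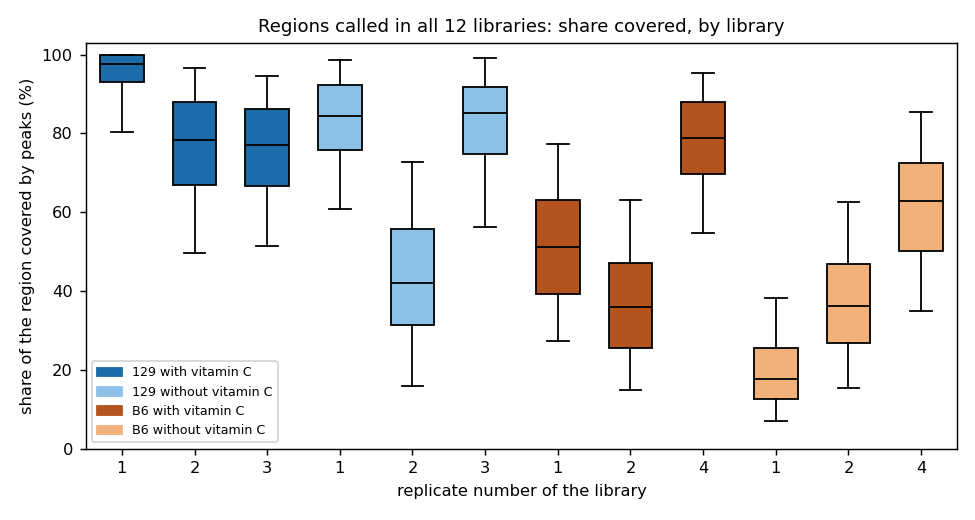
Share of each region covered by peaks (%, vertical axis) in each library (horizontal axis, replicate number), as boxes from the 25th to the 75th percentile with the median as a line and whiskers from the 5th to the 95th percentile of the 437 regions, coloured by group. Medians run from 17.7% in B6 without vitamin C replicate 1 to 97.5% in 129 with vitamin C replicate 1, and libraries of 1 group lie far apart.

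The regions took up between 28.3 and 83.6% of the covered length of each list. The highest share, 83.6%, belonged to B6 without vitamin C replicate 2, where 81.0% of peaks fell in the regions. Peaks were wider inside than outside in all 12 lists, from 1.52 against 1.18 kb (medians, B6 without vitamin C replicate 1) to 16.1 against 7.77 kb (129 with vitamin C replicate 1). The number of peaks per region averaged 1.02 in 129 with vitamin C replicate 1 and 3.41 in B6 with vitamin C replicate 2, so the same domain was 1 block in some lists and fragments in others. Of the 437 regions, 98 were a single peak in every list.

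Agreement on a region was much looser than agreement on bases. Only 1.03 Mb, or 11% of the summed length, lay under a peak in all 12 lists at the same base, here called the shared core. A shared core was present in 388 regions and absent in 49, and 317 had at least 1 kb of it. In 2 regions it reached at least 50% of the bases, the Ndst3 region and the array of predicted genes around Rn4.5s on chromosome 6.

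Coding starts were covered in more lists than the average base of the regions. A base of the regions was covered in 7.53 lists on average and a coding start in 9.69 lists (n = 461). A merged region ends where its outermost peak ends, so bases near its edges are under few lists by construction. How much of the difference comes from this was not tested. Starts were covered more often than bases in 12 of 12 lists, from 47.7 against 19.6% in B6 without vitamin C replicate 1 to 99.1 against 95.9% in 129 with vitamin C replicate 1. All 12 lists covered 127 of the 461 starts (27.5%). The share was 29.8% for the 309 starts with at least 15 CpG and 23.03% for the other 152, and CpG-rich starts were the more often covered group in 9 of 12 lists.

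Coverage fell off unevenly on either side of the start. Averaged over the lists, a peak lay over 80.8% of starts, over 69.2% of positions 3 kb downstream in the direction of the gene, and over 57.2% of positions 3 kb upstream. The downstream side was higher in 12 of 12 lists at 3 kb and at 5 kb, where the means were 53.3 and 42.4%. At 1 kb it was higher in 7 of 12 lists, with 79.5 against 74.3%. By 10 kb coverage was 29.7% downstream and 24.8% upstream. The starts were chosen for lying inside the regions, whose median width was 17.3 kb. Positions far from a start can lie outside its region, so some fall-off is built in.

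**Figure D2:**
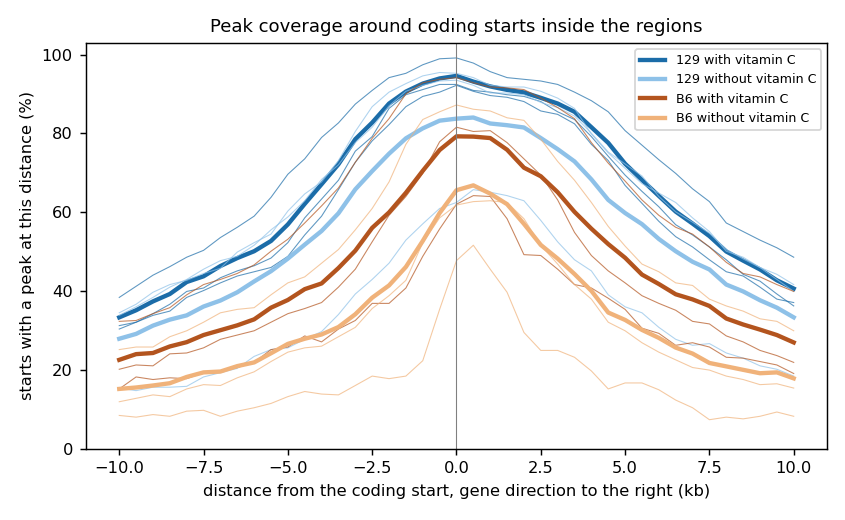
Percentage of the 461 coding starts inside the regions with a peak at each distance (vertical axis) against distance from the start in kb, with the direction of the gene to the right (horizontal axis). Thin lines are the 12 libraries and thick lines the means of the 4 groups of 3. Every library peaks near the start and is higher 3 kb downstream than 3 kb upstream.

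The 4 Hox clusters were the widest regions. The Hoxc region (chr15:102901040-103074009, 173 kb) took in 9 Hox genes and the long noncoding RNA gene Hotair. The Hoxb region (chr11:96241324-96378448, 137 kb) ran from Hoxb9 to Hoxb1, the Hoxa region (chr6:52145893-52279224, 133 kb) held all 11 Hoxa genes, and the Hoxd region (chr2:74642864-74767960, 125 kb) held 9 Hox genes and Evx2. Hoxb13 lay in a region of its own with Ttll6 (chr11:96160836-96210708, 49.9 kb). All 39 Hox genes were thus inside, the whole of each gene included.

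Coverage of Hoxa was 99.6, 92.5 and 94.5% in the 129 embryos with vitamin C, and 97.0, 64.6 and 100% in those without it. In B6 it was 69.6, 69.7 and 95.5% with vitamin C and 24.4, 55.4 and 85.05% without. The groups overlapped, with 129 without vitamin C replicate 2 and B6 without vitamin C replicate 1 the lowest of their backgrounds. Hoxc showed the same low libraries, at 56.7% and 19.2%. In the most complete list Hoxc was 1 peak, and in B6 with vitamin C replicate 2 it was broken into 45. The shared core was 20.5 kb in Hoxa, 11.7 kb in Hoxd, 11.1 kb in Hoxc and 8.02 kb in Hoxb.

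Behind the Hox clusters the widest region held no coding gene. It spanned 70.9 kb around Mir9-3 and its host gene Mir9-3hg (chr7:79492255-79563179), with a shared core of 9.03 kb. Next came Zic1 and Zic4 (chr9:91347086-91412748, 65.7 kb), neighbouring zinc-finger genes of the neural plate and dorsal neural tube. The Zic1 and Zic4 region was covered at 93.7, 71.4 and 83.6% in 129 with vitamin C and 97.4, 45.6 and 99.8% without it. In B6 its coverage was 27.3, 38.3 and 87.8% with vitamin C and 12.8, 24.98 and 61.6% without it, so a single library of each B6 group stood above the other two. The remaining 4 of the 10 widest spanned 59.1 to 61.9 kb. They held Unc13a with Jak3, Rhbg beside Mir9-1, Dand5 with part of Nfix, and Hes2 with Espn.

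Among the developmental families, coverage by family differed widely. The background is that 635 of 20665 autosomal coding genes (3.07%) overlapped the regions. Besides 39 of 39 Hox genes these included 5 of 5 autosomal Gata genes, 5 of 6 Dlx genes, 8 of 12 LIM homeobox genes, 9 of 15 T-box genes, 8 of 14 Nkx genes and 5 of 9 Pax genes. Overlap could be partial. Wholly inside were the 5 Dlx and 8 Nkx genes, but only 1 of the 5 Gata, 4 of the 8 LIM homeobox, 4 of the 9 T-box and 1 of the 5 Pax genes. Forkhead genes reached 13 of 41, developmental bHLH genes 13 of 45, Sox genes 4 of 18, and from the homeobox family of Six2 that gene alone out of 6. A gene of the homeobox, other factor and signal families lay in 24.9% of the 437 regions, against 13.7% of regions called in 11 lists and 6.41% of those called in 10. Their median widths were 17.3, 10.9 and 10.3 kb. Wider regions can overlap more genes, and the part of width in these shares was not tested.

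Gata genes encode zinc-finger factors of blood, heart and endoderm. Gata4 had the widest of their regions (chr14:63234487-63275882, 41.4 kb). It was covered at 100, 83.99 and 92.2% in 129 with vitamin C and 91.7, 71.5 and 90.3% without it. In B6 the Gata4 values were 64.2, 65.7 and 83.3% with vitamin C and 23.2, 20.0 and 78.1% without it. Gata3, Gata2, Gata6 and Gata5 had regions of 31.8, 24.1, 21.4 and 12.4 kb, and Gata6 was the one with no shared core.

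Signal genes split by family. Of 19 Wnt genes, which encode secreted ligands, 10 overlapped the regions, and so did 3 of the 9 Hedgehog pathway genes. These 3 were the ligands Shh, Ihh and Dhh, while the receptor Ptch1, the inhibitor Hhip and the effectors Gli1, Gli2 and Gli3 were outside. Shh (chr5:28453906-28471808) was covered at 92.9, 75.7 and 74.6% in 129 with vitamin C and 93.4, 38.8 and 88.0% without it. In B6 Shh was covered at 71.1, 46.7 and 82.8% with vitamin C and 36.6, 32.6 and 74.7% without it, and it had a core of 4.92 kb. By symbol, Fgf genes were represented by 2 of 20 (Fgf11 and Fgf4) and Bmp and Gdf genes by 3 of 20, and not all of these symbols encode ligands. Axon guidance genes, also counted among the signal families, reached 4 of 56.

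Of genes used as markers of cell types, 33.3% of the early neural plate set overlapped the regions, against 3.07% of all coding genes. The endothelial and blood set and the cranial mesenchyme and neural crest set each stood at 13.3%. Of 15 early neural plate genes the regions held Zic1, Lhx2, Pax6, Sox1 and Rax, and of 15 endothelial and blood genes Tal1 and Lyl1. Of 15 genes of cranial mesenchyme and neural crest they held Foxc2 and Foxd3. Pax6, a factor of the eye and forebrain, was covered at 94.0, 85.4 and 79.9% in 129 with vitamin C and 100, 25.9 and 87.5% without it. In B6 the Pax6 region was covered at 49.2, 35.5 and 89.1% with vitamin C and 17.1, 40.6 and 72.9% without it.

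Neuronal families stood between 2.99 and 8.33% and housekeeping and sensory families at 0. Potassium channel genes reached 7 of 92, and the symbol pattern for neurotransmitter receptors matched 6 of 72, one of which, Grid2ip, encodes a receptor-interacting protein rather than a receptor. Protocadherins reached 2 of 67. None of 42 collagen, 80 ribosomal protein, 1100 olfactory receptor, 352 vomeronasal receptor, 49 keratin or 7 Tet and Dnmt genes overlapped a region. The Polycomb genes themselves gave 3 of 29, Cbx8 and Pcgf1 among them, and the cell cycle inhibitors Cdkn2a and Cdkn2b shared a region of 53.7 kb (chr4:89262933-89316584).

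**Figure D3:**
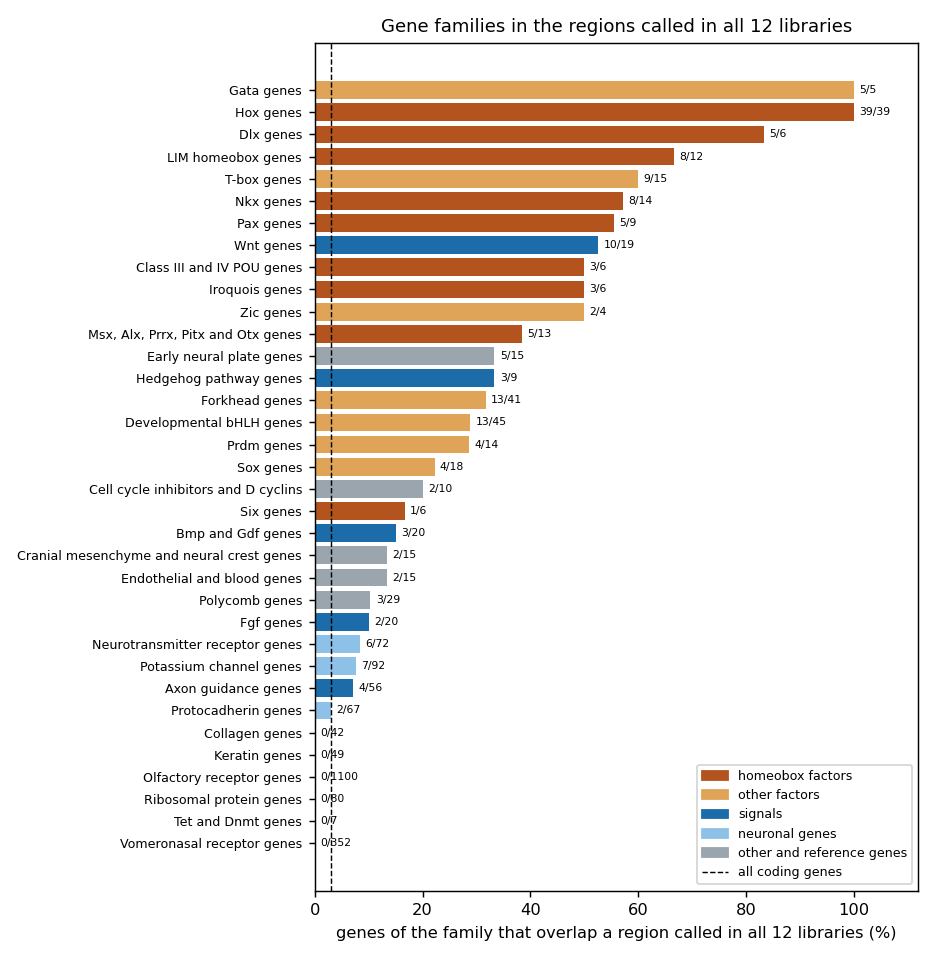
Percentage of the autosomal genes of each family that overlap a region called in all 12 libraries (horizontal axis), with the number of genes printed beside each bar and bars coloured by kind of family. The dashed line is the 3.07% of all coding genes, and Hox and Gata genes stand at 100%.

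Cbx8 was also among the regions with the longest shared core. Its region (chr11:119032365-119066240, 33.9 kb) was covered at 97.5, 97.7 and 87.2% in 129 with vitamin C and 98.3, 68.8 and 99.0% without it. In B6 Cbx8 was covered at 83.4, 71.5 and 94.1% with vitamin C and 31.6, 69.9 and 87.9% without it, so B6 without vitamin C replicate 1 was far below the other 11 libraries. Its shared core was 10.2 kb.

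Signal was used only within a list. For each list the 437 regions were ranked by their highest maximum signal, rank 1 being the highest, and the median rank was taken over the 12 lists. Between 45 and 94 of each list's best 100 peaks by total signal lay in the regions, and between 1 and 80 of its best 100 by maximum signal. The low ends of 45 and 1 both came from B6 without vitamin C replicate 1, and leaving that list aside the lowest values were 85 and 25. The typical region stood at the 84.4th percentile of maximum signal in its list (median over regions of the median over lists), against the 71.4th for regions called in 11 lists.

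The top of the ranking was not occupied by developmental genes. First was a region of 24.4 kb next to and over Fcgr3, an Fc receptor gene, with Mir6546 and 15 tRNA genes in which the same few tRNA kinds recur (chr1:171063076-171087506). It ranked 1 to 5 in all 12 lists. It was covered at 97.5, 91.3 and 91.6% in 129 with vitamin C and 97.4, 50.4 and 97.0% without it, and in B6 at 93.7, 94.3 and 98.0% with vitamin C and 78.2, 92.5 and 95.3% without it. Ndst3, a heparan sulfate modifying enzyme, had a narrow region of 6.43 kb (chr3:123675785-123682211) that ranked 1 to 7.5 in 11 lists and 98.5 in B6 with vitamin C replicate 1.

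The third place was taken by Unc45b, a myosin chaperone (chr11:82924822-82941806, 17.0 kb, ranks 2 to 24.5). The fourth was an array of predicted genes with the 4.5S RNA gene Rn4.5s (chr6:47647123-47687039, 39.9 kb, ranks 2 to 12). This array had the longest shared core of all, 28.2 kb, and its coverage never fell below 75.2%. It was followed by Gm36079 and Gm21188 on chromosome 13, by the antigen processing genes Psmb9, Tap1, Psmb8 and Tap2 on chromosome 17, and by H2-Q6 and H2-Q7, class I histocompatibility genes with close copies nearby.

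Regions over multicopy genes are uncertain, since the treatment of reads with several possible positions is not given in the sources used here. The IgG libraries were not analysed here, so whether these regions also carry signal without the H3K27me3 antibody was not tested.

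Emx1 was the first developmental factor in the ranking, with a median rank of 23.8 and ranks of 7 to 68.5 (chr6:85180980-85200252, 19.3 kb). It was covered at 91.9, 64.0 and 67.7% in 129 with vitamin C, 89.0, 64.5 and 87.5% in 129 without it, 60.8, 56.2 and 87.9% in B6 with vitamin C and 45.0, 51.9 and 60.4% in B6 without it. Runx3, a runt-domain factor, followed at 27.5. Of the Hox clusters, Hoxc had a median rank of 42, Hoxb 56, Hoxa 61.8 and Hoxd 186, so that the widest regions were not those with the highest maximum. Wider regions tended to stand higher. Across regions, with the median ranks turned so that larger means more signal, the Spearman correlation of width with maximum signal was 0.44, and with total signal, which adds up over width, 0.90 (n = 437, sharing the same 12 lists).

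**Figure D4:**
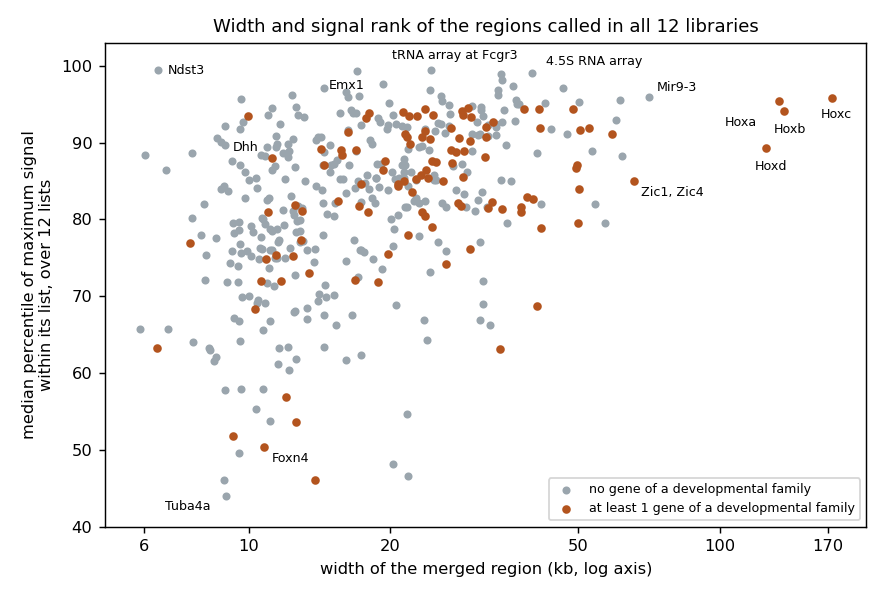
Width of each of the 437 regions (kb, log axis) against the median over 12 lists of the percentile of its maximum signal within the list (vertical axis, starting at 40), with regions that hold a gene of the developmental families in orange. Narrow Ndst3 and the tRNA and 4.5S RNA arrays lie at the top, the 4 Hox clusters lie far to the right, and Foxn4 and Tuba4a lie at the bottom.

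The lowest median rank, 429, belonged to a region without an annotated gene (chr2:118970129-118978976). Above it were Foxn4 (425), a forkhead factor, Tuba4a with A630095N17Rik (420), Adcy9 (416) and the region over parts of Wnt9b and Wnt3 (415). Foxn4 was covered at 90.9, 79.7 and 34.1% in 129 with vitamin C and 88.1, 38.7 and 93.4% without it. In B6 it was covered at 38.3, 18.4 and 81.1% with vitamin C and 21.7, 37.6 and 52.6% without it. Only 6 regions had a median percentile of maximum signal under 50.

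Rank was only loosely shared between lists. The Spearman correlation of ranks over the 437 regions was 0.48 to 0.70 for the 15 pairs of 129 lists, 0.23 to 0.54 for the 15 pairs of B6 lists and 0.31 to 0.57 for the 36 pairs across backgrounds. While 320 regions were among the best 100 in at least 1 list, just 9 were in all 12. These 9 were the regions of Fcgr3, Ndst3, the 4.5S RNA array, Unc45b, Psmb9 to Tap2, Emx1, Cbx8, 2310011J03Rik to Plk5, and Stac3 to Lrp1.

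Steadiness of coverage also singled out few regions. The covered share was at least 50% in all 12 lists in 3 regions, namely the 4.5S RNA array, Ndst3 and the tRNA array at Fcgr3. Apart from these, Emx1 and Dhh varied least, by 46.9 and 48.4 percentage points from the lowest to the highest list. Among the most variable regions, Gsc, Pax2, Egr3 and Srrm3 had ranges of 94.6 to 95.3 points. The Pax2 region, over a factor of kidney, eye and midbrain, had no shared core at all. Kndc1 and Utf1 had the lowest median coverage, 26.6%, since 129 with vitamin C replicate 1 spanned the region in full and the other 11 lists covered 12.3 to 52.2%.

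Most regions were small in gene content. A single coding gene lay in 293 regions, 2 in 80, at least 3 in 46 and none in 18. Of the 18 without a coding gene, 7 held no annotated gene, and others held the microRNA genes Mir9-3, Mir96 with Mir183, Mir129-2 and Mir124a-1. Chromosomes 11 and 2 carried the most regions (50 and 49). Per 100 coding genes chromosome 15 was highest (3.48) and chromosome 14 lowest (1.29).

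The comparison of diets asks whether the mark at these regions changes when vitamin C is withdrawn. The covered share of 3417 regions called in at least 2 lists was fitted with limma on the 4 groups. The diet contrast, without minus with vitamin C averaged over the backgrounds, called 0 of 3417 regions at an adjusted p under 0.05 (0%) and 0 of the 437 (lowest adjusted p 0.779). At an unadjusted p under 0.05 it gave 91 of 3417 regions (2.66%) and 5 of the 437 (1.14%). Lower values without vitamin C made up 89 of the 91 (2.6% of those tested) and all 5. The rule used the same peaks, so these counts are read out beside the background only. Coverage was lower on average without vitamin C in 432 of the 437 regions (98.9%), against 83.5% of all 3417, with a median difference of -14.4 percentage points, against -14.3 over all. All regions share the same lists, so the 437 are not separate observations of diet. The lists of least covered length, at 3.51, 4.085 and 6.92 Mb, were all without vitamin C. With 1 list left out the unadjusted counts ran from 17 to 388 over all regions, lowest without B6 with vitamin C replicate 4 and highest without B6 without vitamin C replicate 4. Among the 437 they ran from 1 to 85, the highest again without B6 without vitamin C replicate 4.

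The 5 regions with an unadjusted p under 0.05 were those of Trmt1, Lyl1 and Nfix, of Tubg2, Plekhh3, Ccr10 and Cntnap1, of the metallothionein genes Mt2 and Mt1, of Anapc2, Tmem210, Lrrc26 and Grin1, and of Grin2d and Kdelr1. Each lost that threshold when some lists were left out, 2 of the 12 lists in turn for the Trmt1 and the Tubg2 regions and 8 of the 12 for the other 3. The Trmt1, Lyl1 and Nfix region (chr8:84699594-84722230) was covered at 97.3, 94.7 and 92.2% in 129 with vitamin C and 94.9, 32.5 and 87.3% without it. In B6 the Lyl1 values were 76.7, 52.9 and 99.8% with vitamin C and 19.4, 32.3 and 61.4% without it, and the groups overlapped in both backgrounds. The difference was -31.0 ± 12.97 points (SE, limma adjusted p = 0.779).

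The Mt2 and Mt1 region (chr8:94168493-94190591) was covered at 98.5, 89.3 and 90.9% in 129 with vitamin C and 91.6, 44.6 and 99.9% without it. In B6 the Mt1 region stood at 68.7, 51.6 and 90.3% with vitamin C and 14.7, 15.3 and 47.4% without it. All 3 B6 libraries without vitamin C lay below the 3 with it, and the 129 groups overlapped. The difference over both backgrounds was -29.3 ± 13.6 points (SE, limma adjusted p = 0.779).

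Full separation of the diet groups was rare in either background. In 129 every list without vitamin C was below every list with it in 24 regions (5.49%), against 130 of 3417 tested (3.8%). Runx3, Hmx1, Foxd2 and Foxc2 with Foxl1 are named as examples from the 24. Gaps could be narrow. The highest list without vitamin C and the lowest with it stood at 86.28 and 86.3% for Hmx1, and at 88.4 and 90.2% for Runx3. With only 3 lists on each side, such an order can also arise by chance. In B6 every list without vitamin C was below every list with it in 6 regions (1.37%), against 115 (3.37%). They were those of Gata5, Fam43b, Cabp1, Mark4 with Exoc3l2, Mt2 with Mt1, and Dio3. None of the 437 did so in both backgrounds, against 3 of the 3417 (0.0878%). At so small a background share, 0 of the 437 is not read as a result about these regions. Higher average coverage without vitamin C was found in 5 regions, led by Trim54, Ucn and Mpv17 with 3.18 ± 11.7 points (SE, limma adjusted p = 0.953), followed by Rxfp3, Prox1, Nxph1 and Cgas with Mto1, each at 1.83 points or less.

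The difference of the diet effects between backgrounds, B6 minus 129, was likewise called in 0 of 3417 regions and 0 of the 437 after adjustment by limma, and at an unadjusted p under 0.05 in 31 (0.907%) and 0. Its median was -3.10 points over the 437 regions and -8.15 over all tested. The lowest p among regions with a negative value was that of Mkx, a homeobox factor of tendon, at -34.2 ± 27.2 points (SE, limma adjusted p = 1), and among those with a positive value that of Olfm2 at 25.6 ± 28.7 points (SE, limma adjusted p = 1). With 1 list left out Mkx ran from -45.9 to -16.2 points, nearest 0 without B6 without vitamin C replicate 1, and Olfm2 from 8.45 to 38.95, nearest 0 without 129 without vitamin C replicate 2.

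The differences between backgrounds had a larger median than those between diets. The contrast of B6 minus 129 averaged over diets called 7 of 3417 regions at an adjusted limma p under 0.05 (0.205%) and 0 of the 437 (lowest adjusted p 0.0832). At an unadjusted p under 0.05 it gave 978 of 3417 (28.6%) and 204 of the 437 (46.7%). Lower values in B6 made up 958 of the 978 (28% of those tested) and all 204. The rule used the same peaks and kept only regions with a peak in every list. The higher share among the 437 is therefore not read as a larger difference. With 1 list left out the unadjusted share of regions tested ran from 13.7% (without 129 without vitamin C replicate 1) to 58.9% (without 129 without vitamin C replicate 2), and the count among the 437 from 74 (without B6 without vitamin C replicate 1) to 373 (without 129 without vitamin C replicate 2). The median difference was -28.3 points over the 437 regions and -28.8 over all tested. Each list was also centred on its median covered share over the 3417 regions tested, a step that moves the median towards 0 by construction. The median over the 437 regions was then -2.52 points. B6 without vitamin C replicate 2 (732 peaks) and 129 without vitamin C replicate 2 (1375) had no peak in most tested regions. Their median was 0, so centring did not remove the level of these lists. Library numbers run with the background per the labels, so a library series and the background cannot be told apart.

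**Figure D5:**
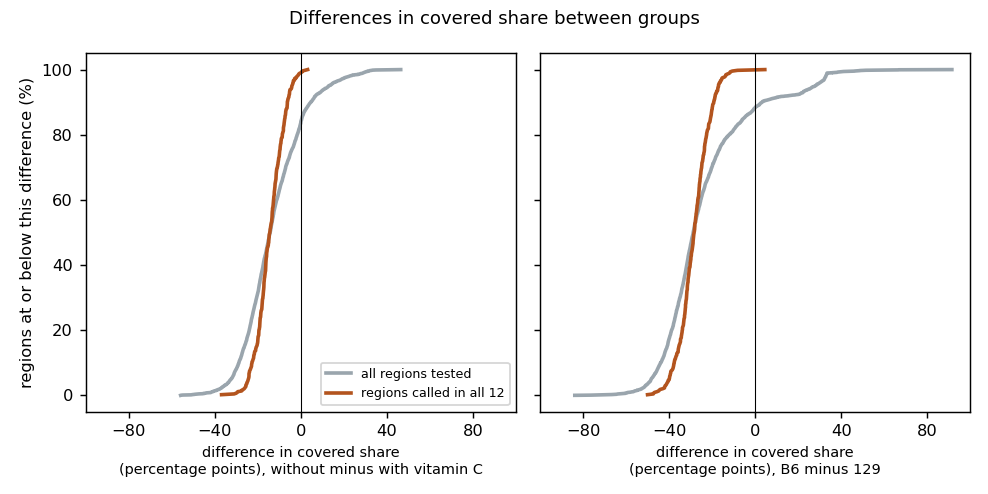
Cumulative percentage of regions (vertical axis) at or below each difference in covered share in percentage points (horizontal axis), without minus with vitamin C on the left and B6 minus 129 on the right, for the 437 regions in orange and all 3417 tested in grey. The medians of both curves lie near -14 points on the left and near -28 points on the right, and the orange curves are steeper.

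Every B6 list was below every 129 list in 5 of the 437 regions (1.14%), against 27 of 3417 tested (0.79%). They were those of Abcg4, Dscaml1, Cgas with Mto1, Hand1 and Gata6. Abcg4, a lipid transporter of the ABC family (chr9:44283719-44291280), was covered at 96.4, 91.2 and 81.98% in 129 with vitamin C and 97.7, 80.5 and 87.7% without it. In B6 the Abcg4 values were 55.2, 18.5 and 60.3% with vitamin C and 19.7, 46.8 and 67.7% without it. The difference was -44.6 ± 13.6 points (SE, limma adjusted p = 0.0934).

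Hand1, a bHLH factor of heart and trophoblast, was covered at 92.1, 74.9 and 79.0% in 129 with vitamin C and 100, 75.03 and 81.5% without it. In B6 Hand1 stood at 73.9, 43.0 and 72.8% with vitamin C and 23.03, 53.3 and 71.8% without it, and the gap between the lowest 129 and the highest B6 library was narrow.

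The lowest p for background among the regions was that of Kcnk15 with Rims4, a potassium channel gene and a synaptic gene (chr2:163849234-163860438). It was covered at 100, 95.8 and 94.8% in 129 with vitamin C and 99.1, 73.2 and 96.8% without it. In B6 the Kcnk15 values were 49.3, 22.1 and 75.6% with vitamin C and 19.0, 51.3 and 77.4% without it, so replicate 4 of both B6 groups overlapped the lowest 129 library. The difference was -44.2 ± 12.8 points (SE, limma adjusted p = 0.0832). Nr2f2, an orphan nuclear receptor of veins and mesenchyme, followed at -47.3 ± 14.1 points (SE, limma adjusted p = 0.0934). The tRNA array at Fcgr3 was the only 1 of the 437 regions with a higher average in B6, by 4.48 ± 9.56 points (SE, limma adjusted p = 0.707).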

How the data were processed

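H3K27me3 peak lists of 12 libraries (4 groups of 3) out of 18 samples were used, and 4 IgG and 2 further H3K27me3 samples were not analysed here. The submitters' processing notes name cutadapt, Bowtie2, Picard, SEACR and mm10, while versions, settings and any use of IgG were not given in the sources used here. The deposited lists hold positions and whole-number total and maximum signal per peak, called per library by the authors, and signal was ranked only within a list. Reads per library are not in the lists, so depth and the precision it gives are unknown. Merging, coverage and gene overlaps (1 bp, RefSeq genes of GRCm38.p6, the assembly of mm10) used Python 3.11.15, NumPy 2.4.6 and pandas 2.3.3, and plots Matplotlib 3.10.9. Covered percent was fitted with limma 3.58.1 (trend, group means, R 4.3.3) on 3417 regions called in at least 2 lists, with Benjamini-Hochberg adjustment and a threshold of 0.05. The fit was tested on simulated data whose spread was narrower than that of the lists, so the test does not speak to power. It replaced an earlier simulation with smaller shifts and a wider spread, in which no region given a change was called after adjustment. Embryos are separate samples, but those of 1 pregnancy code share a dam, so p-values may be too small. Regions were named by rule: the 10 widest, the 10 best and 10 worst median ranks, the 10 longest cores, the extremes of coverage and range, the 5 smallest p per contrast and direction, and up to 4 per family of 35 gene families. Regions without overlap between groups, those in the best 100 of every list, and those with no coding gene were named after their values were seen. A few items that the rule names are not reported here. The regions, families and tests were chosen with earlier results of these data known. Alternatives are in the closing section.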

Additional observations from a re-analysis of the deposited data

How the results depend on the processing

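The number of regions called in every list was 437 and moved with the lists. It was 186 with only the upper 50% of each list's peaks by maximum signal, 182 with equal lists of the 732 peaks of largest total signal, and 3 when at least 50% of the region had to be covered in every list. With 1 list left out it ran from 436 to 702, the highest without B6 without vitamin C replicate 2. The regions with a shared core then ran from 388 to 630, those with a coding gene from 417 to 666, the median width from 14.4 to 17.3 kb and the median coverage from 63.2 to 70.5%. Requiring peaks of 1 kb (423), a common stretch of 1 kb (305), or joining peaks less than 5 kb apart (433) kept it within 1.5 times, as did leaving out the 2 lists with a median peak width under 2 kb (485), an alternative chosen after seeing the data.

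The diet contrast called 0 of 3417 regions by limma and 91 at an unadjusted p under 0.05. It called 8 with presence in place of coverage and 79 with embryos of 1 pregnancy averaged, which leaves B6 with vitamin C as a lone sample assumed to vary like the other groups, and 0 with any list left out. None of the 437 was called for diet under any of these. For presence this was fixed in advance, because the rule gives each of the 437 a peak in every list. The interaction called 0 regions, 8 by presence and 79 with pregnancies averaged, and 0 to 1 with a list left out. The background contrast called 7 regions, against 0 by exact permutation (777 unadjusted), 24 when centred, 12 by presence, 4 over all merged regions, 16 over regions in at least 6 lists, 72 with equal lists, 90 with pregnancies averaged and 0 without the 2 lists of short peaks (251 unadjusted). With 1 list left out it ran from 0 to 1473. Of the 437 regions it called 0, 18 with equal lists, and 0 to 273 with 1 list left out. The highest counts came without 129 without vitamin C replicate 2 (273 of the 437), B6 without vitamin C replicate 4 (182 of them) and B6 with vitamin C replicate 4 (577 over all regions tested). The causes were not tested.

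The differences were recomputed for 26 named combinations of region and contrast, with Mt2 and Mt1 entered for both diet and interaction. Of 484 recomputed differences, 438 kept direction and side of the threshold, 17 passed it in place of the original fit, and 29 changed sign. Equal lists turned Cgas with Mto1 to -3.09 points for diet, and for the interaction Mt2 with Mt1 to 2.58 and Spsb1 to -18.0. The diet difference of Trim54 became -2.76 without the 2 lists of short peaks. With 1 list left out, ranges crossed 0 for diet at Trim54 (-7.16 to 10.6), Rxfp3 (-4.07 to 10.0), Prox1 (-4.20 to 6.32), Nxph1 (-9.09 to 11.6) and Cgas (-5.02 to 7.11), for background at Fcgr3 (-3.31 to 8.42) and for the interaction at Runx3 (-0.11 to 35.8). No paired analysis was possible because the labels carry no replicate numbers shared between groups. Unknown depth limits every comparison of coverage.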
